A study of Mus musculus with 12 samples.

Results

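Glycolysis and pentose phosphate genes were followed in a mouse model of T cell lymphoma driven by the ZMYM2-FGFR1 fusion kinase and in its normal counterparts. The set held 35 genes, listed by name for their roles in glucose uptake, glycolysis, lactate and pyruvate handling, the pentose phosphate pathway and its hypoxia control. Of these, 31 had a probe set with a single gene symbol and 29 passed a filter on low values, out of 18193 genes measured and 12786 tested on the arrays. For each gene the probe set of highest mean log2 intensity across the 12 arrays was used.

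The tumour samples were T lymphomas taken from ZMYM2-FGFR1 mice of the third serial transplant (n = 4). In 3 of them the unsorted tissue was GFP+ Thy1+ CD4+CD8+ double-positive (DP) in over 90% of cells, and 1 tumour was sorted for such cells. The arrays also held ZNF112 (n = 1), which the labels call a cell line without giving its strain or origin. DP thymocytes (n = 3) were Thy1+ CD4+CD8+ cells sorted from normal Balb/c thymus, each sample a pool of 3 mice. Leukaemic stem cells (LSC, n = 2) were sorted as GFP+ Lin-Sca-1+c-kit+ from marrow or spleen of diseased ZMYM2-FGFR1 mice, pooled from 2 to 3 animals. Haematopoietic stem cells (HSC, n = 2) had the same Lin-Sca-1+c-kit+ phenotype and came from normal Balb/c marrow, with 5 female mice to a sample. Ages are not given, and the labels do not say whether the transplanted tumours trace back to separate primary tumours. The replicates are called biological.

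Glycolysis splits glucose into pyruvate in a chain of cytosolic steps, with main control points at the hexokinase and phosphofructokinase steps, and lactate dehydrogenase turns pyruvate into lactate when it does not enter the mitochondria. The pentose phosphate pathway branches off after hexokinase and supplies NADPH and ribose for nucleotides. Proliferating thymocytes and T cell tumours are known for high glycolytic activity, while resting haematopoietic stem cells are known for a glycolytic state under HIF-1 control in the marrow.

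Arrays of a group did not resemble each other equally. The root mean square SD of log2 intensity over all tested genes was 0.619 in T lymphoma, 0.153 in DP thymocytes, 1.02 in LSC and 0.554 in HSC, and over the members it was 0.668, 0.139, 0.945 and 0.539 in the same groups. The array medians lay between 99.5 and 109 on the T cell side (T lymphoma, cell line and DP thymocytes). On the stem cell side they lay between 44.3 and 46.1. Levels set across the sides therefore carry an offset, and every test used differences taken within a side. Correlations and marker levels across the sides are descriptions only. LSC 2 correlated at 0.87 to 0.90 with the lymphomas over all tested genes and at 0.79 and 0.80 with the HSC arrays. LSC 1 correlated at 0.82 and 0.83 with HSC and at 0.72 to 0.80 with the lymphomas. The LSC arrays correlated at only 0.795 with each other, and the HSC arrays at 0.94. The 3' signal over 5' signal of control probe sets is a measure of RNA and cRNA integrity. For beta-actin it was 2.44 to 3.69 in T lymphoma and 2.18 to 2.23 in DP thymocytes, and 13.6 and 9.82 in LSC against 5.79 and 3.91 in HSC. For Gapdh it was 3.09 to 3.47 in the unsorted lymphomas, 4.56 in the sorted one and 3.19 to 3.66 in DP thymocytes. On the stem cell side the Gapdh ratio was 7.84 and 8.13 in LSC, against 6.68 in HSC 1 and 3.64 in HSC 2. The mean log2 level of 10 measured T cell and DP markers was 11.74 to 12.32 in T lymphoma and 12.97 to 13.10 in DP thymocytes. It was 10.68 in the cell line, 8.25 and 9.92 in LSC, and 6.32 and 5.63 in HSC, so it was higher in both LSC arrays than in both HSC arrays. In HSC, 5 and 8 of these 10 markers lay at or under the filter level of log2 6.33, against 2 in each LSC array. That filter level lay above the median of every stem cell side array and under that of every T cell side array. The number of arrays limits the precision of every value.

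Promoters were read for the members because HIF-1, whose oxygen-sensitive subunit is encoded by the member Hif1a, binds the letters ACGTG in its target genes, and MYC binds CACGTG. The 250 bases before the start of transcription were taken from RefSeq (GRCm38.p6), where 34 of the 35 members had an entry. ACGTG was searched on both strands; CACGTG reads the same on both strands and holds ACGTG on each, so the searches overlap. ACGTG stood in 16 of 34 member genes (47.1%), against 18.5% of all genes and 20.0% of protein-coding genes with an entry. CACGTG stood in 7 of 34 member genes (20.6%), against 6.86% of all genes and 7.61% of protein-coding genes. A match is a description of these letters and not evidence of binding. The promoters below are those of Slc2a1 and Hif1a, the members that were higher in LSC, of Fbp1, the member with the largest difference in lymphoma, and of Ldha, which held the most matches and whose difference was near 0 in both comparisons. Capitals mark ACGTG or its complement CACGT.
Slc2a1: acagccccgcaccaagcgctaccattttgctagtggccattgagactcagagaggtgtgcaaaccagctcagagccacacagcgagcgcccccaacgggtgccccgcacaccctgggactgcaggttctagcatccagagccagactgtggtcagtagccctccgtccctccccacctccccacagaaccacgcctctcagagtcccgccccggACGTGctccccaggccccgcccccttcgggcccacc
Hif1a: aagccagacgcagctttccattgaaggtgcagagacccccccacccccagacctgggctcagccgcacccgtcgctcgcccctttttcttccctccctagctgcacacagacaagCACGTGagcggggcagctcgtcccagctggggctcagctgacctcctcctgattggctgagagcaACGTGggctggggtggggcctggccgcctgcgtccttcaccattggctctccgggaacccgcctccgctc
Fbp1: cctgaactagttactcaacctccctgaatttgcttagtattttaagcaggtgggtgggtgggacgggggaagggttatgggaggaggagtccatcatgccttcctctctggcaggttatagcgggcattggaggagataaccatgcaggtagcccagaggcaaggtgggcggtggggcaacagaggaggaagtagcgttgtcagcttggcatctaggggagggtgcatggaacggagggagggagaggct
Ldha: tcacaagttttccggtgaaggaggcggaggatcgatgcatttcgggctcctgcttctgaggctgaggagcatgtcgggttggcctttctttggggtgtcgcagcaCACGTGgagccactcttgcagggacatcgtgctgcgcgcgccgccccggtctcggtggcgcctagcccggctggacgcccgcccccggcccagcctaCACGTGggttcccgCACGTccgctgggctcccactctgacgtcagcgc
The Slc2a1 stretch (chr4:119108495-119108744, plus strand) had 1 match, 36 bases before the start. The Hif1a stretch (chr12:73907617-73907866, plus strand) had 3 matches counted over both strands, 1 CACGTG among them, from 135 to 70 bases before the start. The Ldha stretch (chr7:46845554-46845803, plus strand) had 5 matches with 2 CACGTG, from 145 to 34 bases before the start. The Fbp1 stretch (chr13:62888283-62888532, minus strand) had 0.

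The first comparison asked how T lymphoma differs from DP thymocytes, normal cells with the same surface phenotype. One gluconeogenic gene, Fbp1, was far higher in the lymphomas, and Pfkfb4 was modestly lower, while most enzymes of the glycolytic chain had differences within 1 log2 unit that did not pass. Of the 29 members tested, 1 was called higher and 1 lower, a call being a Benjamini-Hochberg adjusted p under 0.05 in limma, against 3.37% called higher and 3.18% called lower among all tested genes, so the share of members called is near that of all genes. The median difference was 0.18 over the members and -0.02 over all tested genes, with 20 members positive and 9 negative. In 5 members every lymphoma lay above every DP thymocyte array and in 5 every lymphoma lay below, against 15.3% and 19.1% of all tested genes. The first 5 were Hk2, Aldoa, Pgk1, Bnip3 and Fbp1, and the others were Pfkm, Ldhb, Slc2a3, Pfkfb4 and Pdha1. The shared spread bore on these counts. When each group was given its own weight, 10 of 29 members were called (7 higher, 3 lower) and 3530 of 12786 genes. With only these 7 arrays in the fit, 5 of 29 members and 1824 of 12786 genes were called.

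**Figure D1:**
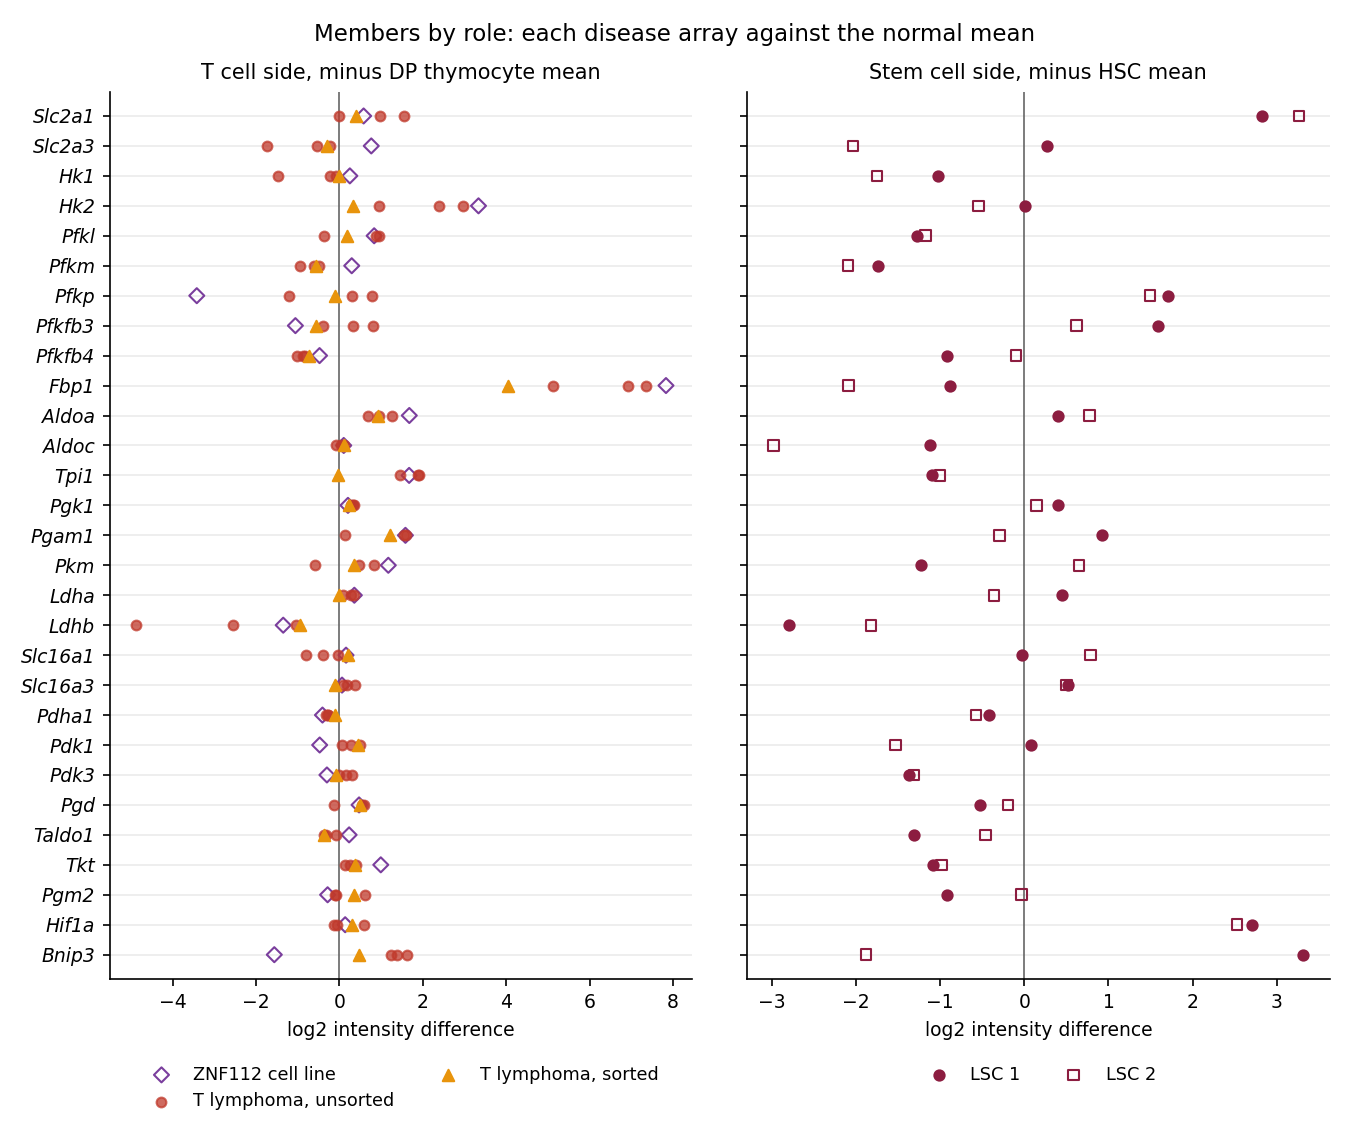
Each row is a tested member, ordered by role, and each point is 1 array's log2 intensity minus the mean of the normal cells, DP thymocytes on the left and HSC on the right. Fbp1 stands at 4.04 to 7.36 in the lymphomas and 7.83 in the cell line, and Slc2a1 and Hif1a stand above 2.5 in both LSC arrays.

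Glucose enters through Slc2a1 and Slc2a3, which encode the transporters GLUT1 and GLUT3. Slc2a1 had log2 intensities of 10.50, 9.92 and 8.93 in unsorted lymphomas 1 to 3 and 9.35 in the sorted one, against 8.94, 8.90 and 9.01 in DP thymocytes. The groups overlapped, since lymphoma 3 stood among the DP arrays, and the difference of 0.72 ± 0.34 (SE) did not pass (limma, adjusted p = 0.252). Slc2a3 had 9.35, 9.67 and 8.16 in the unsorted lymphomas and 9.58 in the sorted one, against 9.83, 9.91 and 9.91 in DP thymocytes. All 4 tumours lay lower, by small margins except in lymphoma 3, and the difference of -0.69 ± 0.53 did not pass.

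Hexokinases trap glucose as glucose 6-phosphate. Hk2, the inducible isoform, had 10.60, 10.02 and 8.60 in the unsorted lymphomas and 7.96 in the sorted one, against 7.63, 7.73 and 7.57 in DP thymocytes, and it was 10.98 in the cell line. All lymphomas were above all DP arrays, with the sorted tumour nearest to them, and the difference was 1.65 ± 0.57 (limma, adjusted p = 0.128). Without the sorted tumour the difference of Hk2 was 2.10 ± 0.47 and passed (limma, adjusted p = 0.0240). The sorted tumour on its own differed from DP thymocytes by 0.32 ± 0.66. Hk1, the widely expressed isoform, had 10.85, 10.72 and 9.47 in the unsorted lymphomas and 10.94 in the sorted one, against 10.92, 10.90 and 11.01 in DP thymocytes. For Hk1 lymphoma 3 stood far below the normal arrays and the other tumours close to them.

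Phosphofructokinase makes the committed step of glycolysis, and its liver, muscle and platelet type subunits are encoded by Pfkl, Pfkm and Pfkp. Pfkm had 9.57, 9.46 and 9.12 in the unsorted lymphomas and 9.50 in the sorted one, against 10.10, 10.07 and 10.01 in DP thymocytes. The groups did not overlap, and the difference of -0.64 ± 0.24 did not pass (limma, adjusted p = 0.150). Pfkl had 10.77, 10.71 and 9.46 in the unsorted lymphomas and 10.02 in the sorted one, against 9.58, 9.98 and 9.91 in DP thymocytes, and Pfkp had 12.43, 11.95, 10.43 and 11.53, against 11.64, 11.79 and 11.51. For both the tumours lay on either side of the DP arrays, with lymphoma 3 lowest.

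Pfkfb3 and Pfkfb4 encode bifunctional enzymes that set fructose 2,6-bisphosphate, the activator of phosphofructokinase. Pfkfb4 had 7.44, 7.30 and 7.49 in the unsorted lymphomas and 7.57 in the sorted one, against 8.37, 8.19 and 8.38 in DP thymocytes. All tumours, sorted or not, lay below all DP arrays, and Pfkfb4 fell by 0.86 ± 0.20 on the log2 scale (limma, adjusted p = 0.0352). This call was lost in 6 of the 7 fits without 1 array, in all but the one without lymphoma 4 (limma, adjusted p up to 0.153, differences of -0.92 to -0.81). Pfkfb3 had 9.78, 9.31 and 8.59 in the unsorted lymphomas and 8.42 in the sorted one, against 8.97, 8.92 and 9.07 in DP thymocytes, with tumours on both sides of the normal arrays and a difference of 0.04 ± 0.38.

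Fbp1 encodes fructose 1,6-bisphosphatase, the gluconeogenic enzyme that runs opposite to phosphofructokinase and is best known from liver and kidney. It had 13.19, 11.38 and 13.62 in the unsorted lymphomas, 10.30 in the sorted one and 14.09 in the cell line, against 6.24, 6.17 and 6.38 in DP thymocytes. Every tumour array was at least 3 log2 units above the DP arrays, and the cell line was highest of all. The mean was 12.12 ± 1.55 (SD, n = 4) in T lymphoma and 6.26 ± 0.10 (SD, n = 3) in DP thymocytes, a difference of 5.86 ± 0.72 (SE; limma, adjusted p = 0.00152). In 2 of the 3 DP arrays Fbp1 lay under the filter level, so the size of the difference rests on low values there. The call of Fbp1 held in each of the 7 fits without 1 array, with differences of 5.36 to 6.47, and with the sorted tumour alone (4.04 ± 0.79; limma, adjusted p = 0.0412).

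Markers of other cells and of cytotoxic function are set beside Fbp1 here. Macrophage and stroma levels were raised mainly in the unsorted tumours, and the mean NK and cytotoxic level in every tumour and the cell line. The mean log2 level of 13 macrophage markers was 11.15, 9.86 and 9.97 in the unsorted lymphomas, 6.69 in the sorted one and 6.71 in the cell line, against 6.54 to 6.65 in DP thymocytes. Of these 13 markers, 1 lay at or under the filter level in each unsorted tumour, 6 in the sorted tumour, 4 in the cell line and 5 or 6 in the DP arrays. Of 12 macrophage markers tested, 1 was called higher in lymphoma and 12 were positive. The level of 11 stroma and endothelium markers was 9.90, 9.27 and 8.94 in the unsorted lymphomas, 6.12 in the sorted one and 6.20 in the cell line, against 6.16 to 6.25 in DP thymocytes. The level of 6 NK and cytotoxic markers was 10.65, 8.16 and 8.67 in the unsorted lymphomas, 7.74 in the sorted one and 8.67 in the cell line, against 6.92 to 6.95 in DP thymocytes, above the normal arrays in every tumour and in the cell line. Of these 6 markers, 1 or 2 lay at or under the filter level in each lymphoma, 3 in the cell line and 2 or 3 in the DP arrays, and of 5 tested 1 was called higher and 5 were positive. Fbp1 read 10.30 in the sorted tumour and 14.09 in the cell line. In these arrays macrophage and stroma levels were close to those of DP thymocytes, and the mean NK and cytotoxic level was higher. Among the NK and cytotoxic markers Gzma had 14.18 to 15.18 in the lymphomas and 15.03 in the cell line, against 10.46 to 10.75 in DP thymocytes. Gzmb had 14.38, 8.10 and 7.93 in the unsorted lymphomas and 6.72 in the sorted one. It read 13.28 in the cell line and 5.95 to 6.41 in DP thymocytes. In the sorted tumour and the cell line the raised mean rested mostly on these 2 genes, so it does not show the other markers to be higher there. The arrays do not tell whether tumour cells or other cells carried these markers. The part of either in the Fbp1 values was not tested. In bulk samples fewer cells of a type and less RNA in each cell cannot be told apart.

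Aldolase splits the doubly phosphorylated sugar, and triose phosphate isomerase, encoded by Tpi1, interconverts its products. Aldoa, the main isoform of most tissues, had 12.06, 11.73 and 11.48 in the unsorted lymphomas and 11.71 in the sorted one, against 10.65, 11.09 and 10.63 in DP thymocytes. The groups did not overlap and the sorted tumour stood with the others, but the difference of 0.95 ± 0.24 missed the threshold (limma, adjusted p = 0.0501). Of the 4 other Aldoa probe sets, at 0.64 to 0.98, 1 passed. Aldoc, the isoform best known from brain, lay at 4.96 to 5.16 in every T lymphoma array and at 4.97 to 5.14 in DP thymocytes, under the filter level throughout. Tpi1 had 12.23, 12.25 and 11.79 in the unsorted lymphomas and 10.32 in the sorted one, against 10.07, 10.57 and 10.39 in DP thymocytes, and it was 12.01 in the cell line. The unsorted tumours and the cell line were all high and the sorted tumour stood among the DP arrays. Over the 4 tumours the difference of Tpi1 was 1.30 ± 0.48 (limma, adjusted p = 0.147), and without the sorted one it was 1.75 ± 0.31 and passed (limma, adjusted p = 0.0095). The Tpi1 and Aldoa probe sets used here are of a kind that may also bind similar transcripts, as are those of Pgk1, Ldhb, Pgd, Tkt and Slc2a3. The other Tpi1 probe sets were positive over the 4 tumours too, without passing.

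**Figure D2:**
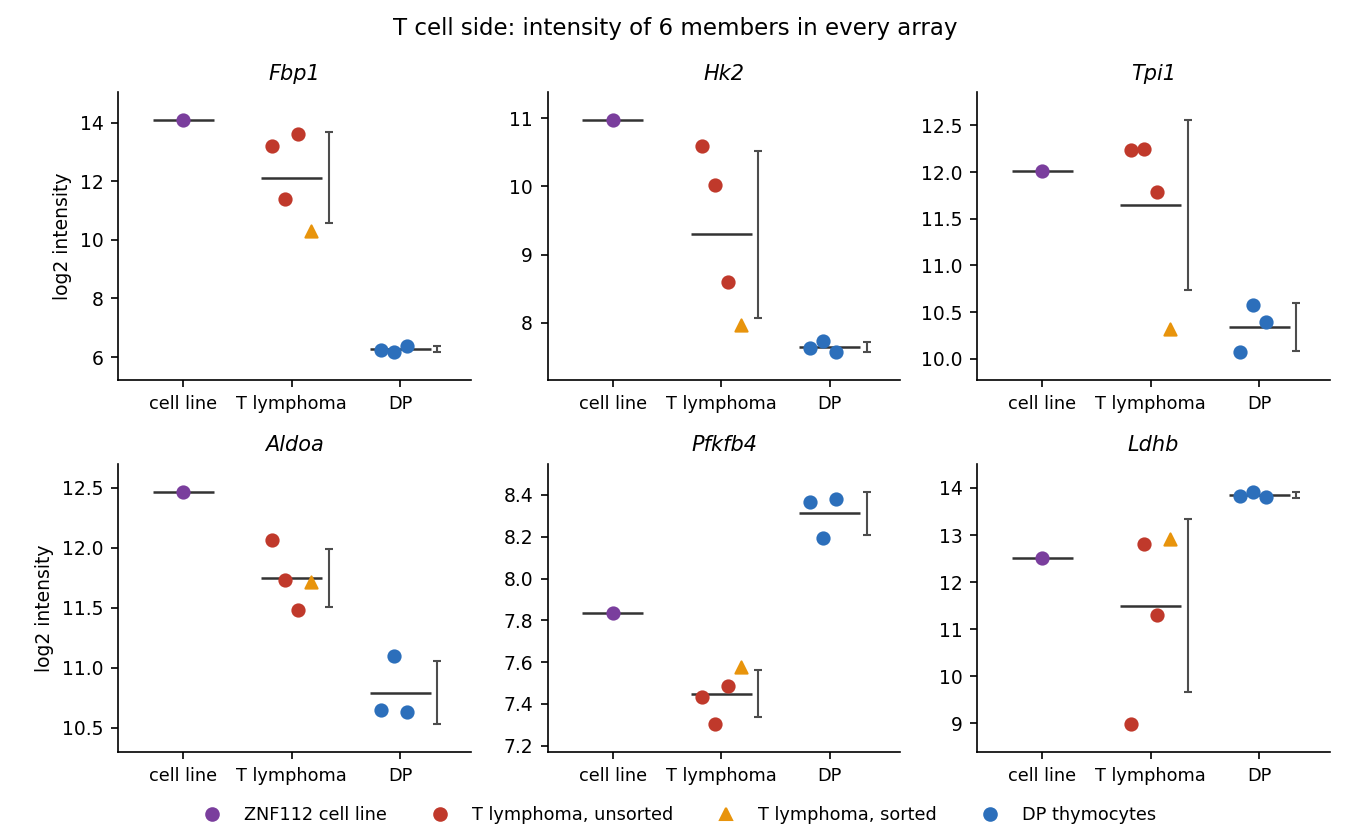
Log2 intensity of 6 members in every array of the T cell side, with the group mean as a line and 1 SD as a bar. Fbp1 and Aldoa separate all tumours from DP thymocytes, while for Hk2 and Tpi1 the sorted tumour (triangle, 7.96 and 10.32) lies at or near the DP values.

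In the later steps of glycolysis no member passed. Pgk1, which encodes the first ATP-yielding kinase, lay at 13.17 to 13.27 in T lymphoma and 12.84 to 13.03 in DP thymocytes, a small gap without overlap (0.29 ± 0.17). Pgam1, phosphoglycerate mutase, had 11.68, 11.72 and 10.26 in the unsorted lymphomas and 11.34 in the sorted one, against 9.92, 10.28 and 10.18 in DP thymocytes. Its difference of 1.12 ± 0.43 did not pass (limma, adjusted p = 0.161), lymphoma 3 being level with the normal cells. Pkm, pyruvate kinase, lay at 11.60 to 13.02 in T lymphoma and 12.09 to 12.32 in DP thymocytes. Eno2, the neuronal enolase, was not tested, with 5.30 to 5.59 in T lymphoma and 5.47 to 5.62 in DP thymocytes. Eno1 and Gpi1, which encode the main enolase and glucose phosphate isomerase, were not analysed here. Gapdh had no probe set of its own outside the array controls. Its 3' control probe set read 13.94 to 14.29 in T lymphoma and 14.17 to 14.26 in DP thymocytes, 10.62 and 13.22 in LSC, and 12.77 and 13.47 in HSC.

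Lactate dehydrogenase is built from the subunits of Ldha and Ldhb. Ldha had 13.46, 13.36 and 13.19 in the unsorted lymphomas and 13.07 in the sorted one, against 12.94, 13.13 and 13.21 in DP thymocytes, with overlap and a difference of 0.17 ± 0.26. Ldhb had 8.98, 12.81 and 11.30 in the unsorted lymphomas, 12.91 in the sorted one and 12.51 in the cell line, against 13.83, 13.92 and 13.81 in DP thymocytes. All tumours lay below all DP arrays, but they ranged over 3.93 log2 units, the widest range of any member, with lymphoma 1 far lowest. The difference of -2.35 ± 0.83 did not pass (limma, adjusted p = 0.134), and its other 3 probe sets gave -2.55 to -2.21. Fbp1 and Hk2 had the next widest ranges over the tumours, 3.32 and 2.64. The lactate transporter genes Slc16a1 and Slc16a3 (MCT1 and MCT4) overlapped: Slc16a1 had 12.19, 12.95 and 12.59 in the unsorted lymphomas and 13.20 in the sorted one, against 13.02, 12.99 and 12.95 in DP thymocytes. Slc16a3 had 6.32, 6.42, 6.62 and 6.14, against 6.18, 6.42 and 6.13, all near the filter level.

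Pyruvate dehydrogenase lets pyruvate into the mitochondrial cycle, and the kinases of the Pdk family shut it off. Pdha1, its catalytic subunit, lay at 12.42 to 12.64 in T lymphoma and 12.69 to 12.77 in DP thymocytes, with no overlap and a difference of -0.24 ± 0.26. Pdk1 had 10.08, 10.49, 10.29 and 10.44 in lymphomas 1 to 4, against 10.32, 9.96 and 9.74 in DP thymocytes. Pdk3 had 9.72, 9.54, 9.86 and 9.48, against 9.36, 9.63 and 9.67. Both overlapped with DP thymocytes, and Pdk2 (5.33 to 5.66 in T lymphoma, 5.78 to 6.07 in DP thymocytes) was under the filter and not tested.

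None of the 4 tested pentose phosphate members passed in the tumours. Pgd, a later NADPH-yielding dehydrogenase of the pathway, lay at 12.21 to 12.93 in T lymphoma and 12.26 to 12.43 in DP thymocytes (0.38 ± 0.24). Tkt and Taldo1, the transketolase and transaldolase of its non-oxidative arm, had differences of 0.29 ± 0.24 and -0.28 ± 0.22, and Pgm2, which handles pentose and hexose phosphates, had 0.20 ± 0.32. G6pdx, the entry enzyme, was not analysed here. Hif1a had 13.59, 12.94 and 12.86 in the unsorted lymphomas and 13.30 in the sorted one, against 13.15, 12.84 and 12.99 in DP thymocytes, overlapping with a difference of 0.18 ± 0.22. Bnip3, a HIF-1 target that marks mitochondria for removal, had 10.80, 10.57 and 10.44 in the unsorted lymphomas and 9.67 in the sorted one, against 9.06, 9.20 and 9.33 in DP thymocytes. All tumours were above the DP arrays for Bnip3, the sorted one least, and the difference of 1.18 ± 0.97 did not pass (limma, adjusted p = 0.524).

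The sorted tumour was set beside the 3 unsorted ones, since it was sorted to see whether sorting affects expression. Hk2 and Tpi1 had lower values in it, as had Fbp1, but no member passed: 0 of 29 were called in either direction, with 3 at an unadjusted limma p under 0.05, against 0.0626% called higher and 0.594% called lower among all tested genes. Tpi1 differed by -1.77 ± 0.44 (limma, adjusted p = 0.179), Fbp1 by -2.43 ± 0.79 (limma, adjusted p = 0.320) and Hk2 by -1.78 ± 0.66 (limma, adjusted p = 0.409). Without unsorted lymphoma 2, Fbp1 passed (limma, adjusted p = 0.0256). The group of 1 sorted array compares tumours as well as the sort. The marker levels given above were lower in the same array, and their part in these differences was not tested. The cell line, with macrophage and stroma levels near those of DP thymocytes, read 10.98 for Hk2 and 12.01 for Tpi1.

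The cell line was set beside the 4 lymphomas. Pfkp was lower in it, at 8.23 against 12.43, 11.95 and 10.43 in the unsorted lymphomas and 11.53 in the sorted one, below every tumour array. The difference was -3.36 ± 0.58 (limma, adjusted p = 0.0338), and Pfkp was the 1 member called of 29, while 0 were called higher, against 0.61% lower and 0.54% higher among all tested genes. The call was lost without lymphoma 2 (limma, adjusted p = 0.0788), against the sorted tumour alone (-3.30 ± 0.78; limma, adjusted p = 0.126) and with only these 5 arrays in the fit (limma, adjusted p = 0.230). Its companions Pfkl and Pfkm were at 10.66 and 10.35 in the cell line, with differences of 0.42 ± 0.45 and 0.94 ± 0.35 that did not pass. Only 1 array stood for the line, which the fit assumed to vary like the other groups. Bnip3 read 7.63 in the cell line against 9.67 to 10.80 in the lymphomas, without passing (-2.74 ± 1.42).

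LSC were compared with HSC, normal marrow cells of the same sorting phenotype. The glucose transporter gene Slc2a1 and the hypoxia factor gene Hif1a were higher in both LSC arrays, and Pfkm, Pdk3 and Aldoc were lower. Of 29 members, 2 were called higher and 3 lower in limma, against 4.05% and 6.21% of all tested genes. Aldoc, among the 3 lower, had passed the filter mainly through the HSC arrays. The median difference was -0.47 over the members and -0.03 over all tested genes, with 11 members positive and 18 negative. In 6 members both LSC arrays lay above both HSC arrays and in 11 both lay below, against 20.5% and 22.5% of all tested genes. These calls rest on the spread that all groups shared. With a weight for each group limma called 0 members (5 at an unadjusted p under 0.05) and 96 genes in all. With only these 4 arrays in the fit it called 0 members (9 at an unadjusted p under 0.05) and 0 genes.

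Slc2a1 had 10.96 and 11.41 in LSC, against 7.88 and 8.41 in HSC. Both LSC arrays lay well above both HSC arrays, and Slc2a1 rose by 3.04 ± 0.45 (limma, adjusted p = 0.00381). It stood at 2.82 without LSC 2 and 3.26 without LSC 1, and its other probe sets were called as well, at 2.80 and 2.12. With a weight for each group the call of Slc2a1 was lost (limma, adjusted p = 0.0907). Slc2a3 had 11.01 and 8.71 in LSC, against 10.79 and 10.69 in HSC, so LSC 1 was level with HSC and LSC 2 was lower (-0.88 ± 0.69).

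Hif1a had 13.38 and 13.20 in LSC, against 10.42 and 10.93 in HSC. The LSC arrays lay close together and both were above HSC, and Hif1a rose by 2.61 ± 0.29 (limma, adjusted p = 0.00111), with 2.70 without LSC 2 and 2.53 without LSC 1. Another Hif1a probe set was called at 2.45, and 2 others were not, at 1.86 and 0.61. The one at 0.61 lay under the filter level in every LSC and HSC array, and the one at 1.86 in all of them but LSC 2. With a weight for each group the call was lost (limma, adjusted p = 0.0652). Bnip3 did not move with Hif1a in both arrays: it had 12.40 and 7.20 in LSC, against 8.68 and 9.48 in HSC, so LSC 1 was above and LSC 2 below the HSC arrays. Its difference was 3.31 without LSC 2 and -1.88 without LSC 1, each past the test (limma, adjusted p = 0.0030 and 0.0276), and 0.72 ± 1.27 with both.

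**Figure D3:**
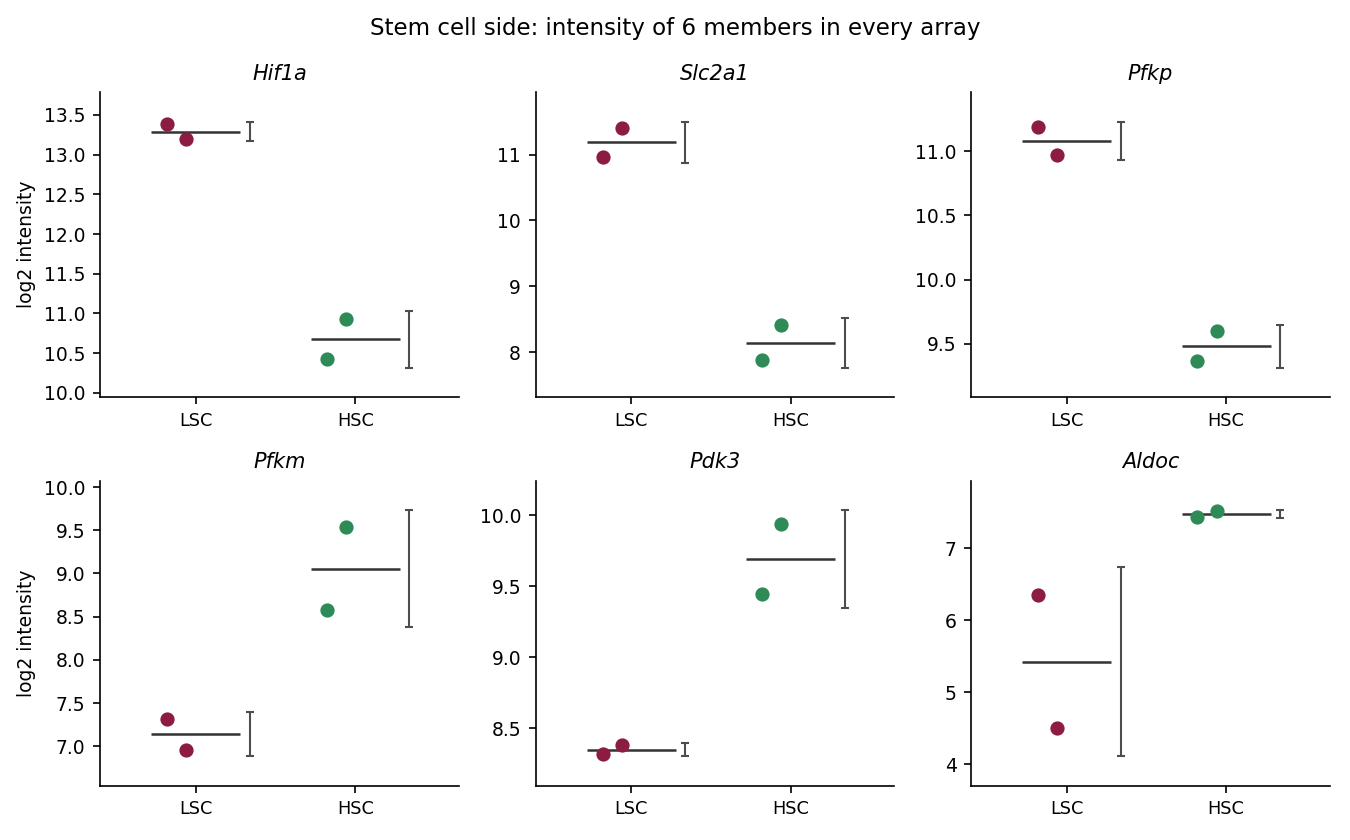
Log2 intensity of 6 members in every array of the stem cell side, LSC left of HSC, with the group mean as a line and 1 SD as a bar. Hif1a, Slc2a1 and Pfkp stand higher in both LSC arrays and Pfkm, Pdk3 and Aldoc lower, and the LSC arrays of Aldoc lie far apart (6.36 and 4.50).

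At the hexokinase and phosphofructokinase steps Pfkm was the member called. Hk1 had 9.77 and 9.04 in LSC, against 10.97 and 10.62 in HSC, a difference of -1.39 ± 0.46 that did not pass (limma, adjusted p = 0.0935). Hk2 had 9.12 and 8.56 in LSC, against 8.77 and 9.44 in HSC, with overlap. Pfkm had 7.32 and 6.96 in LSC, against 8.57 and 9.54 in HSC, both LSC arrays below both HSC arrays. Pfkm fell by 1.91 ± 0.31 (limma, adjusted p = 0.0058), with -1.73 without LSC 2 and -2.09 without LSC 1, and lost its call with a weight for each group (limma, adjusted p = 0.104). Pfkl had 8.47 and 8.58 in LSC, against 9.84 and 9.67 in HSC (-1.23 ± 0.40; limma, adjusted p = 0.0894). Pfkp ran the other way, with 11.19 and 10.98 in LSC, against 9.36 and 9.60 in HSC (1.60 ± 0.52, limma, adjusted p = 0.0861). Its other probe sets gave -0.22 and 0.21, and they lay under the filter level in every LSC and HSC array. That level is above the median of each of these arrays. Pfkfb3 had 8.40 and 7.43 in LSC, against 6.37 and 7.26 in HSC, and Pfkfb4 had 5.87 and 6.69, against 6.73 and 6.86. Neither passed. Fbp1 had 9.95 and 8.74 in LSC, against 10.62 and 11.04 in HSC, lower in both LSC arrays without passing (-1.49 ± 0.95; limma, adjusted p = 0.367).

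Aldoc had 6.36 and 4.50 in LSC, against 7.44 and 7.52 in HSC. Both LSC arrays were lower, LSC 2 well under the filter level and LSC 1 barely above it. Every array of the T cell side lay under that level, so the HSC arrays and LSC 1 alone brought Aldoc into the test. Aldoc fell by 2.05 ± 0.47 (limma, adjusted p = 0.0255), a call for a gene kept mainly by the group where it was high. The difference was -1.12 without LSC 2 and -2.98 without LSC 1, so its size turned on which LSC array was used, and the call was lost without either HSC array (limma, adjusted p = 0.0765 and 0.0994) and with a weight for each group (limma, adjusted p = 0.103). Aldoa had 11.64 and 12.01 in LSC, against 10.84 and 11.64 in HSC (0.59 ± 0.32), and did not pass. Another Aldoa probe set passed at 0.77 (limma, adjusted p = 0.0353), and the rest, at 0.26 to 0.76, did not. Tpi1 had 10.73 and 10.83 in LSC, against 11.23 and 12.42 in HSC (-1.05 ± 0.62). Pgk1, Pgam1 and Pkm overlapped between the groups, with differences of 0.27, 0.31 and -0.29. Eno2, untested, read 7.30 in LSC 1 and 4.07 in LSC 2, against 4.40 and 4.41 in HSC.

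At the exit of the pathway Ldha had 12.51 and 11.69 in LSC, against 11.64 and 12.48 in HSC, with overlap and a difference of 0.05 ± 0.34. Ldhb had 7.13 and 8.10 in LSC, against 9.83 and 10.00 in HSC, lower in both LSC arrays without passing (-2.31 ± 1.08; limma, adjusted p = 0.219). Slc16a1 had 10.73 and 11.55 in LSC, against 9.92 and 11.61 in HSC, and Slc16a3 had 5.88 and 5.86, against 5.52 and 5.20, the last all under the filter level. Pdk3 had 8.32 and 8.38 in LSC, against 9.45 and 9.94 in HSC, and fell by 1.34 ± 0.23 (limma, adjusted p = 0.00833). Its LSC values were nearly equal, at -1.37 without LSC 2 and -1.31 without LSC 1, and the call was lost with a weight for each group (limma, adjusted p = 0.306). Pdk1 had 8.97 and 7.36 in LSC, against 8.39 and 9.39 in HSC, with LSC 2 lowest, and Pdk2 had 4.79 and 4.74, against 4.86 and 4.72. Pdha1 had 10.54 and 10.38 in LSC, against 10.33 and 11.58 in HSC.

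The 4 tested pentose phosphate members had negative differences in LSC, and none passed. Tkt had 11.87 and 11.97 in LSC, against 12.41 and 13.50 in HSC (-1.03 ± 0.32; limma, adjusted p = 0.0701). Another Tkt probe set passed at -1.97 (limma, adjusted p = 0.00262). Taldo1 had 11.12 and 11.97 in LSC, against 12.25 and 12.61 in HSC (-0.89 ± 0.28; limma, adjusted p = 0.0823), and Pgd and Pgm2 had -0.36 ± 0.32 and -0.47 ± 0.41. Levels of other markers are set beside these members. The mean level of 11 cycling cell markers was 9.54 and 9.39 in LSC, against 10.69 and 11.69 in HSC, with 4 called lower, and that of 9 stem cell markers was 9.04 and 6.71 in LSC, against 9.90 and 10.29 in HSC. Granulocyte markers stood at 9.86 and 6.30 in LSC, against 11.97 and 10.59 in HSC. Erythroid markers stood at 6.82 and 5.58, against 8.49 and 7.77, with 3 of 6 called lower. The HSC arrays differed in macrophage markers, 10.15 in HSC 1 and 7.44 in HSC 2, against 8.51 and 6.68 in LSC. They differed in B cell markers too, 8.98 and 6.94, against 6.96 and 6.61 in LSC. The part of cell cycle, other cells and RNA quality in the LSC values was not tested.

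The difference between the tumour contrast and the stem cell contrast was tested in the same fit. Fbp1 and Pdk3 had higher differences in lymphoma against DP thymocytes than in LSC against HSC, and Hif1a and Slc2a1 had lower ones. Of 29 members, 2 were called in each direction, against 5.3% higher and 3.62% lower among all tested genes, and the median was 0.55 over the members and 0.02 over all genes. Fbp1 differed by 7.35 ± 1.19 (limma, adjusted p = 0.0076), Pdk3 by 1.44 ± 0.29 (limma, adjusted p = 0.0200), Hif1a by -2.44 ± 0.36 (limma, adjusted p = 0.00517) and Slc2a1 by -2.32 ± 0.57 (limma, adjusted p = 0.0371). With a weight for each group Fbp1 kept its call (limma, adjusted p = 0.0440) and Pdk3, Hif1a and Slc2a1 lost theirs, at adjusted p from 0.0676 to 0.210. Without 1 array Fbp1 and Hif1a passed in 11 of 11 fits, Pdk3 in 7 and Slc2a1 in 4. Pdk3 lost its call without any 1 of the DP arrays and without HSC 2, and Slc2a1 without any 1 of the DP arrays, lymphoma 2, either HSC array or LSC 2.

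**Figure D4:**
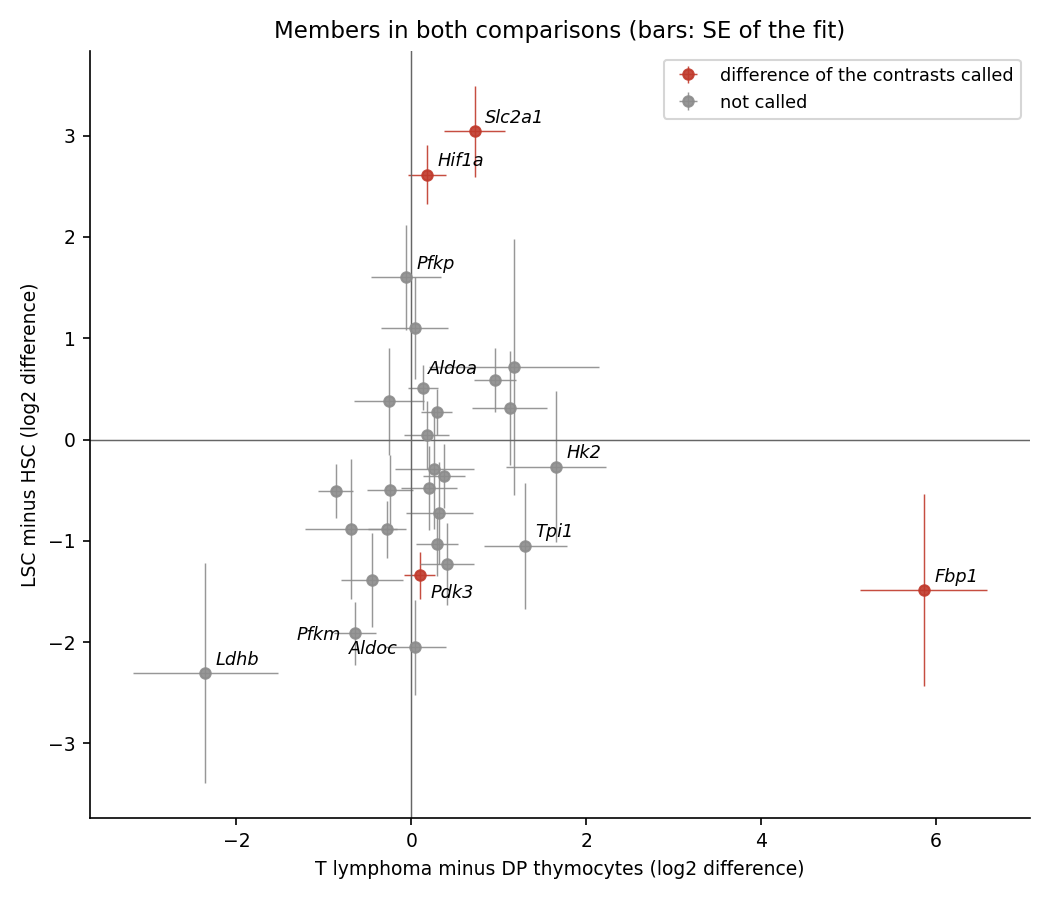
Each point is a tested member, with its log2 difference of T lymphoma minus DP thymocytes on the horizontal axis and of LSC minus HSC on the vertical axis, and bars of 1 SE. Fbp1 stands far right at 5.86, and Slc2a1 and Hif1a stand at the top at 3.04 and 2.61 with tumour differences of 0.72 and 0.18.

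Other genes of these pathways were followed through lists of related genes. Of 23 tested genes of glycolysis and glucose handling outside the members, 2 were called higher in lymphoma and 0 lower, against 3.37% higher and 3.18% lower among all tested genes, which is the background for every list in this contrast. These were Pgm1 (1.68 ± 0.20) and Pgm3 (1.60 ± 0.28), enzymes that move phosphate on hexoses and on acetylglucosamine; another Pgm1 probe set passed at 1.05. Of 21 hypoxia and HIF genes, 3 were called higher and 0 lower, with a median of 0.23 against -0.02 over all tested genes: Epas1, the HIF-2 alpha subunit (4.63 ± 0.59), Ndrg1 (3.66 ± 0.30) and Vegfa, an angiogenic growth factor (2.80 ± 0.36). Of the other probe sets of these genes, 3 of 4 for Ndrg1 passed (3.49 to 3.99), while those of Epas1 (0.58) and Vegfa (0.43) did not. Of 20 regulators of glucose use, Myc (2.26 ± 0.26) and Mycn (4.35 ± 0.20) were called, with another Mycn probe set at 0.05. No gene passed among 7 of the pentose phosphate list, with 1 at an unadjusted limma p under 0.05, or among 11 of pyruvate entry, with 2. Without DP thymocytes 3 the call of Pgm3 was lost, and with the sorted tumour alone those of Pgm3 and Vegfa.

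Ndrg1 and Myc were high in every tumour. Ndrg1 had 13.85, 13.07 and 12.82 in the unsorted lymphomas and 13.74 in the sorted one, against 9.64, 9.66 and 9.83 in DP thymocytes. Myc had 10.54, 10.19 and 10.03 in the unsorted lymphomas and 10.56 in the sorted one, against 7.89 to 8.33 in DP thymocytes. In neither gene did the groups overlap, and the sorted tumour stood with the highest of the unsorted ones.

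In LSC against HSC the hypoxia list had 3 of 21 called higher and 0 lower, with a median of 0.85 against -0.03 over all tested genes, and 4.05% of all tested genes were called higher and 6.21% lower. These were Ddit4, an mTOR inhibitor induced by stress (2.82 ± 0.53), Kdm3a, a histone demethylase (1.76 ± 0.43), and Ndrg1 (2.51 ± 0.40). Ndrg1 had 13.07 and 12.15 in LSC, against 10.04 and 10.17 in HSC. Its other probe sets passed at 1.93 and 2.75, and those at 1.39 and 0.95 did not. Of the regulators, Trp53inp1 (1.96 ± 0.37) and Mycn (4.79 ± 0.26) were called higher, but another Mycn probe set was called lower at -2.87 and another of Trp53inp1 was at 0.70. Of the glycolysis and glucose handling list 1 was higher, the transporter gene Slc2a6 (1.68 ± 0.33), and 1 lower, Bsg (-1.69 ± 0.46), which encodes the chaperone of the lactate transporters. Of the 7 pentose phosphate genes 2 were lower, Rpia (-1.68 ± 0.41) and Pgls (-1.47 ± 0.38), enzymes that isomerise ribose 5-phosphate and open the 6-phosphogluconolactone ring, and 0 were higher. Of 11 genes of pyruvate entry 1 was lower, Pck2, the mitochondrial PEP carboxykinase (-2.52 ± 0.38; another probe set at -2.56), and 0 were higher. Of these 10 list genes, only Mycn passed with a weight for each group, and with only these 4 arrays in the fit limma called 0 of them, with 8 at an unadjusted p under 0.05. Without HSC 2, 3 of the 10 passed (Mycn, Ndrg1 and Pck2), and 6 did without HSC 1. In the difference of the contrasts Epas1 (4.87), Myc (3.30), Pck2 (3.31) and Pgm1 (1.92) were called higher and Ankrd37 (-2.65), Ddit4 (-2.58), Kdm3a (-2.26) and Trp53inp1 (-2.64) lower. With a weight for each group 3 of these 8 passed, Myc, Pck2 and Trp53inp1. Of the 11 fits without 1 array, the call was lost in 9 for Ankrd37 and in 9 for Ddit4. It was lost in 7 for Kdm3a and in 2 for Epas1. In this contrast other probe sets of Epas1 (0.53), Pgm1 (0.17) and Trp53inp1 (-1.63) did not pass, and that of Pck2 did (2.71). In the cell line Pcx, pyruvate carboxylase (1.67 ± 0.32), and Mycn (1.53 ± 0.30) were called higher than in the lymphomas, and neither passed with a weight for each group, without lymphoma 2 or lymphoma 3, or against the sorted tumour alone.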

How the data were processed

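Total RNA of 12 mouse samples was hybridised to Affymetrix arrays, 1 for each sample, after amplification with a two-cycle kit, per the labels' protocols. The table deposited by the authors holds 1 linear intensity for each probe set and array. Per the submitters' processing notes they were made with RMA (robust multi-array average), with no version. The genome build is not given in the sources used here, and scanner files were not used here. Medians differ between the T cell side and the stem cell side, as if the sides had been normalized apart. Tests therefore used differences taken within a side.

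From the deposited intensity values log2 was taken. A platform annotation gave 34945 of 45101 probe sets 1 symbol, outside the 64 array controls; 932 had several symbols and 9160 are unnamed here. A gene was read from whichever of its probe sets had the highest mean across the 12 arrays, which can be one that the gene's others do not follow. Genes with at least 2 arrays above log2 6.33, the table's median (intensity 80.4), were tested two-sided with lmFit and eBayes of limma 3.58.1 under R 4.3.3. The fit had 1 mean for each group over all arrays and a shared spread, and p-values were adjusted by Benjamini-Hochberg over all tested genes, with 0.05 as the threshold. The sorted tumour was a group of its own in the sorted contrast. The procedure was tested on simulated data.

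The members, the lists of other pathway genes and markers, the rule for named genes and the tests were chosen with earlier results of these data known. Values in every array are given for called members, for the 3 largest differences not called, for the 3 widest ranges over the lymphomas and for isoform families; genes of other lists are named where called. Alternatives covered the filter, quantile normalization within a side, the arrays in the fit, a weight for each group (5.95 for DP thymocytes, 0.814 for T lymphoma, 0.213 for LSC and 0.541 for HSC), the probe set rule, the replicate number as a block, each array left out, and the sorted tumour alone. Equal replicate numbers did not pair the samples: the deviations of same-numbered arrays correlated at 0.03 and -0.07 for T lymphoma and DP thymocytes 1 and 2, near 0 for 3, and at 0.10 for LSC and HSC. Sequences are from RefSeq promoters (GRCm38.p6).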

Additional observations from a re-analysis of the deposited data

Results flagged for a closer look

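Among the 4 lymphomas, lymphoma 3 stood far below the others in 2 of 29 members. For Hk1 its gap to the nearest tumour took up 0.852 of the group's whole range and for Pgd 0.873, both above Dixon's critical value for 4 samples, which chance passes in about 1 of 20 groups.

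The tumour contrast and the stem cell contrast differed by test in 4 of 29 members. Of these, 2 were called in each direction, against 5.3% higher and 3.62% lower among all tested genes. With a weight for each group only Fbp1 kept its call. The calls of Pdk3 and Slc2a1 did not hold in every fit without 1 array. The difference was 7.35 for Fbp1, 1.44 for Pdk3, -2.44 for Hif1a and -2.32 for Slc2a1 on the log2 scale, as T lymphoma minus DP thymocytes less LSC minus HSC.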

How the results depend on the processing

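The 18 gene results were recomputed under the alternatives, which gave 245 values: 197 stayed on the same side of the threshold in the same direction, 41 lost a call, 6 gained one and 1 reversed: Tpi1 stood at -0.029 with the sorted lymphoma as the only tumour. With a weight for each group, the members called numbered 10 in T lymphoma minus DP thymocytes, 0 in LSC minus HSC and 1 in the difference of the contrasts, and all genes called numbered 3530, 96, 251 and, for the sorted lymphoma, 232, while the cell line stood at 1 member and 154 genes. With only the arrays of a comparison, the members called were 5, 0 and, for the cell line, 0, and all genes called were 1824 in T lymphoma minus DP thymocytes, 0 in LSC minus HSC, 4 in the cell line and 0 in the sorted lymphoma. The sorted lymphoma alone against DP thymocytes gave 1 member and 302 genes, and the cell line against it 0 members and 67 genes. For the sorted lymphoma, 53 genes were called without the filter and 50 with the mean of all probe sets of a gene. Leaving out 1 array gave 1 to 4 members and 382 to 1571 genes in T lymphoma minus DP thymocytes, 4 to 8 and 774 to 2713 in LSC minus HSC, and 2 to 7 and 444 to 2443 in the difference of the contrasts. It gave 0 to 1 and 68 to 290 for the cell line, and 0 to 1 and 40 to 248 for the sorted lymphoma. Lymphoma 4 decided the upper counts in T lymphoma minus DP thymocytes, where Hk2 and Tpi1 passed without it. The cause of these changes was not tested.

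The replicate number as a block, although the numbers do not pair the samples, gave 2 members called in T lymphoma minus DP thymocytes, Fbp1 and Tpi1 (1013 of all genes), 4 in LSC minus HSC, Hif1a, Pdk3, Pfkm and Slc2a1 (822 genes), and 3 in the difference of the contrasts, Fbp1, Hif1a and Tpi1 (1003 genes). Pfkfb4, Aldoc and, in the difference of the contrasts, Pdk3 and Slc2a1 were not called with the block (limma, adjusted p = 0.0643, 0.0654, 0.0536 and 0.0709), and Tpi1 was. The block is a comparison of fits only, since same-numbered arrays share a number and nothing else that the labels give.

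Fewer arrays in LSC, HSC and the cell line, and members near the filter level (Aldoc, Slc16a3, Fbp1 in DP thymocytes), limit what these arrays can show.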

Other observations

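Lymphoma 3 was the lowest of the 4 tumours in 13 of 29 members (44.8%) and in 28.4% of all tested genes, and the sorted lymphoma 4 in 10 members (34.5%) and 26.9% of genes. Lymphomas 1 and 2 were lowest in 4 and 2 members. These counts were chosen after the values were seen. The mean level of 7 B cell markers was 10.00 in lymphoma 3, against 8.24 and 7.93 in the other unsorted tumours, 6.46 in the sorted one and 7.04 to 7.14 in DP thymocytes, and its part in the low values was not tested.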
